A study of Mus musculus with 6 samples.

Results

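Glycolysis and the hypoxia response were followed in mammary basal cells of mice that lack vimentin. The genes were taken by symbol from the deposited gene counts: 18 glycolytic enzymes and transporters and 12 hypoxia genes, 30 in all. Of these, 28 were found among the 23337 genes listed, 17 of the glycolytic group and 11 of the hypoxia group. Pkm and Ca9 were not found under those symbols. The files list the same genes as Pkm2 and Car9, per the RefSeq synonyms, and these are given beside the members without being counted among them.

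Glycolysis splits glucose into pyruvate, and lactate dehydrogenase turns pyruvate into lactate, which monocarboxylate transporters carry across the cell membrane. Hypoxia-inducible factor (HIF) pairs an alpha subunit with a stable beta subunit. While oxygen is present, prolyl hydroxylases of the Egln family mark the alpha subunit for destruction, so HIF is controlled mostly at the protein level. When oxygen falls, HIF binds hypoxia response elements near genes for glycolysis, blood vessel growth, pH control and collagen maturation, and among its targets are Egln1 and Egln3 themselves. In the mammary gland, basal cells form the contractile outer layer of the epithelium, against the basement membrane and the stroma.

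Libraries of 4 samples came from mice homozygous for a Vim knockout allele (Vimtm1Cba/tm1Cba), and those of 2 samples from wild-type mice (Vimwt/wt). All mice were 15 weeks old, on a mixed 129/Sv and C57BL/6 background, and every library pooled cells of 2 to 3 mice, so variation between single animals is not seen. The allele is constitutive, so stromal, vascular and immune cells of the knockout mice lacked intact Vim as well. Cells were sorted as live, CD45-, CD31-, CD24 low and CD49f high, and were frozen in lysis buffer. The file names carry a day code, used here as a technical batch and called the collection day. The labels mention separate experiments but do not say what the code marks. By this code, knockout 1, knockout 2 and wild type 1 belonged to the first collection day, and knockout 3, knockout 4 and wild type 2 to the second.

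Total counts ran from 25347967 to 30771258 in the knockout and from 27342539 to 31200622 in the wild-type libraries. Vim itself had 92.3, 104, 111 and 111 counts per 1000000 (CPM, on a scale normalised between libraries by TMM) in the knockout libraries, against 215 and 241 CPM in the wild-type libraries. The log2 difference was -1.12 (SE 0.12; by edgeR's quasi-likelihood test the adjusted p was 0.019) and in the direction the labels give, and where in the gene the reads left in knockout fall was not analysed here. Summed levels of the 6 basal markers were 10748 to 12723 CPM in knockout and 12320 to 12777 CPM in wild type, and all 6 had counts in every library. The 8 luminal markers were also detected in every library, at 2127 to 2351 CPM in knockout and 2114 to 2232 CPM in wild type. All 14 endothelial markers were detected in every library, although CD31+ cells were gated out, at 47.1 to 75.5 CPM in knockout and 119 to 292 CPM in wild type. By edgeR, 1 of these 14 was lower in knockout at an adjusted p under 0.05 and 0 were higher. Of all 13925 tested genes, 3 were lower and 8 higher at that level. The 6 pericyte markers, also detected throughout, summed to 415 to 523 CPM in knockout and 285 to 295 CPM in wild type. Other lists were low or overlapped: fibroblast markers 97.4 to 132 and 127 to 142 CPM, leukocyte markers 104 to 153 and 134 to 164 CPM (Ptprc and Cd3e among those at 0 in some libraries), skeletal muscle markers 9.74 to 12.0 and 9.43 to 17 CPM (Tnnt3 at 0 in some), and erythroid markers at most 0.157 and 0.0912 CPM, in knockout and wild type in each case.

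To compare levels between genes, counts were divided by exon length and given as transcripts per 1000000 (TPM). Slc2a1, which encodes the main basal glucose transporter GLUT1, averaged 1105 ± 189 TPM in knockout (SD, n = 4) and 909 ± 3.04 TPM in wild type (SD, n = 2). Its mean was the highest of the glycolytic genes that can be compared on this scale, ahead of Aldoa (aldolase A, 772 ± 53.0 and 763 ± 80.2 TPM in knockout and wild type) and Ldha (lactate dehydrogenase A, 629 ± 70.1 and 599.9 ± 43.2 TPM). Aldoa stood above Ldha in all 6 libraries. Pkm2, pyruvate kinase M, had 608 ± 26.7 TPM in knockout and 633 ± 7.52 TPM in wild type. It is not placed in this order because more of its sequence is shared with other genes. The shares, measured as set out below, were 23.7% for Pkm2, 10.4% for Ldha and 6.6% for Aldoa. Vegfa, the principal endothelial growth factor gene, and Ndrg1, a stress-induced gene, led the hypoxia group. Vegfa averaged 1151 ± 314 TPM in knockout and 998 ± 266 TPM in wild type. Ndrg1 averaged 1131 ± 158 TPM in knockout and 1048 ± 252 TPM in wild type. The lowest tested members on this scale, leaving aside genes with shared sequence, were Ankrd37 (3.44 ± 0.93 and 2.74 ± 0.54 TPM) and Pdk1 (a kinase that inhibits pyruvate dehydrogenase, 3.64 ± 0.31 and 3.66 ± 0.46 TPM), each in knockout and wild type. Bnip3, a mitophagy receptor, had 3.07 ± 1.33 TPM in knockout and 1.92 ± 1.09 TPM in wild type, and is one of the genes left aside.

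**Figure D1:**
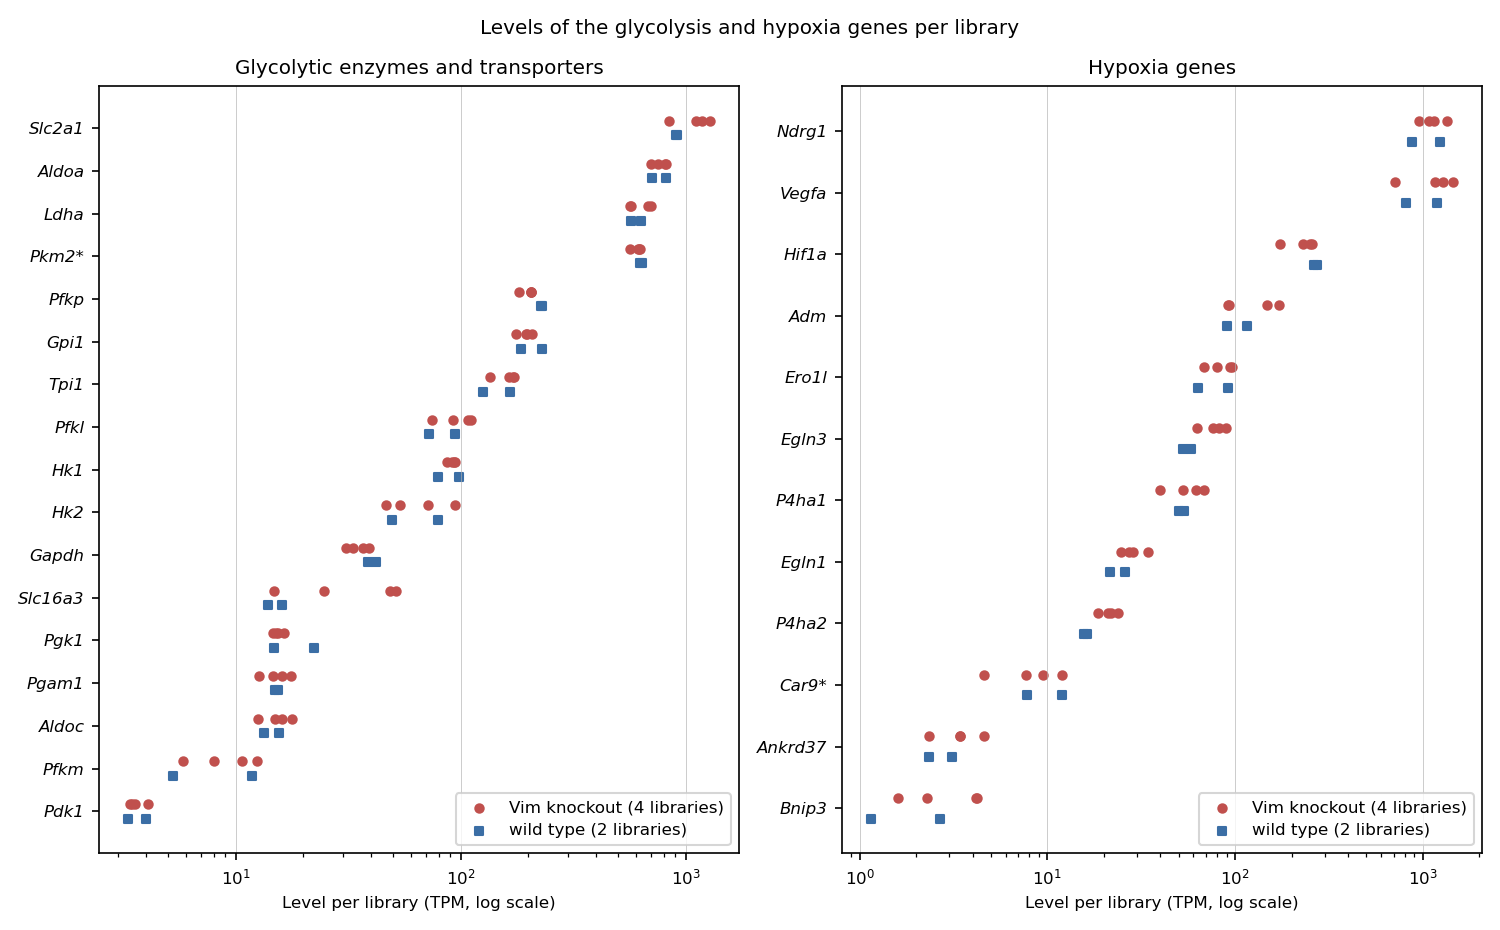
Level of each gene in every library, in TPM on a log scale, with the 4 knockout libraries as red circles above the 2 wild-type libraries as blue squares; Pkm2 and Car9, marked *, stand for Pkm and Ca9. For most genes the points of both genotypes overlap; in TPM, Egln3 and P4ha2 lie higher and Pfkp, Hif1a and Pkm2 lower in all 4 knockout libraries, although the CPM of Hif1a and Pkm2 overlap.

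Some levels do not stand for the whole gene, because the authors' counting left out reads that fit several places. Eno1, enolase 1, had 0 counts in all 6 libraries, and 92.8% of its exon bases are annotated on the same strand to Gm5506 as well, which makes reads there ambiguous between both genes. Of all 50-base stretches in their protein-coding transcripts, 58.4% for Gapdh, 68.0% for Pgk1, 41.5% for Pgam1 and 20.7% for Bnip3 occur in transcripts of other genes too. Their levels, 35.1 ± 3.63 TPM for Gapdh in knockout and 40.5 ± 2.30 TPM in wild type for example, cannot be set against those of other genes. Between libraries they were compared on the reads that were counted. Whether these reads stood for the same part of each gene in every library was not tested. For Pkm2 the share was 23.7%, for Gpi1 18.6%, for Ldha 10.4%, and for Slc2a1, both hexokinases, Slc16a3, Egln1, Egln3, P4ha1, P4ha2, Ero1l and Adm it was 0%.

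No member passed the threshold between knockout and wild type by edgeR's quasi-likelihood test with Benjamini-Hochberg adjustment over all 13925 tested genes. Of the 28 members found, 27 passed the filter on low counts, 16 glycolytic and 11 hypoxia genes, and 0 of these 27 had an adjusted p under 0.05, where 0.079% of all tested genes did. It was also 0 of 27 with the collection day as a replicate block, which called 1.56% of all genes. DESeq2, which called 1.87% of all genes, and limma-voom, which called 10 of the 13925, called 0 of 27 as well. At an unadjusted p under 0.05 there were 3 members, Slc16a3, Egln3 and P4ha2, against 8.57% of all tested genes. At that level DESeq2 gave 3 members and 1240 of all 13925 genes, and limma-voom 2 members and 1188 genes. The p-values measure the spread between these 6 pooled samples, of which only 2 were wild type, and a p above the threshold does not show that a gene was equal. In bulk RNA of sorted cells, fewer cells of a type and less RNA per cell cannot be told apart.

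The fold changes of the hypoxia members lay mostly above 0, and those of the glycolytic members around it. Over the 16 glycolytic genes the median log2 fold change, knockout minus wild type, was 0.04, with 11 above 0 and 5 below. Over the 11 hypoxia genes it was 0.28, with 10 above 0 and Hif1a below. With Car9, which stands for the listed Ca9 and was at -0.22, it was 0.24, with 10 above 0 and 2 below. Over all tested genes it was -0.01, with 47.6% above 0. Over 52 other tested hypoxia genes, described below, it was 0.03, with 29 above 0 and 23 below. The members and these other genes were chosen with earlier results of these data known. Within the first and second collection day the hypoxia median was 0.23 and 0.24, and the glycolysis median -0.04 and 0.10. Without any 1 of the 6 libraries the hypoxia median stayed between 0.16 (without knockout 3) and 0.37 (without wild type 1), and the glycolysis median between -0.01 (without wild type 2) and 0.09 (without wild type 1). The signs of single hypoxia genes were less stable than the median. Without wild type 1, Vegfa (-0.077), Ndrg1 (-0.15) and Ero1l (-0.15) were below 0 like Hif1a. Ankrd37 (-0.093) and P4ha1 (-0.089) were below 0 within the first day, and Adm (-0.022) and Ndrg1 (-0.026) within the second. Genes of a pathway are not independent of each other, so the counts above and below 0 are a description and were not tested.

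**Figure D2:**
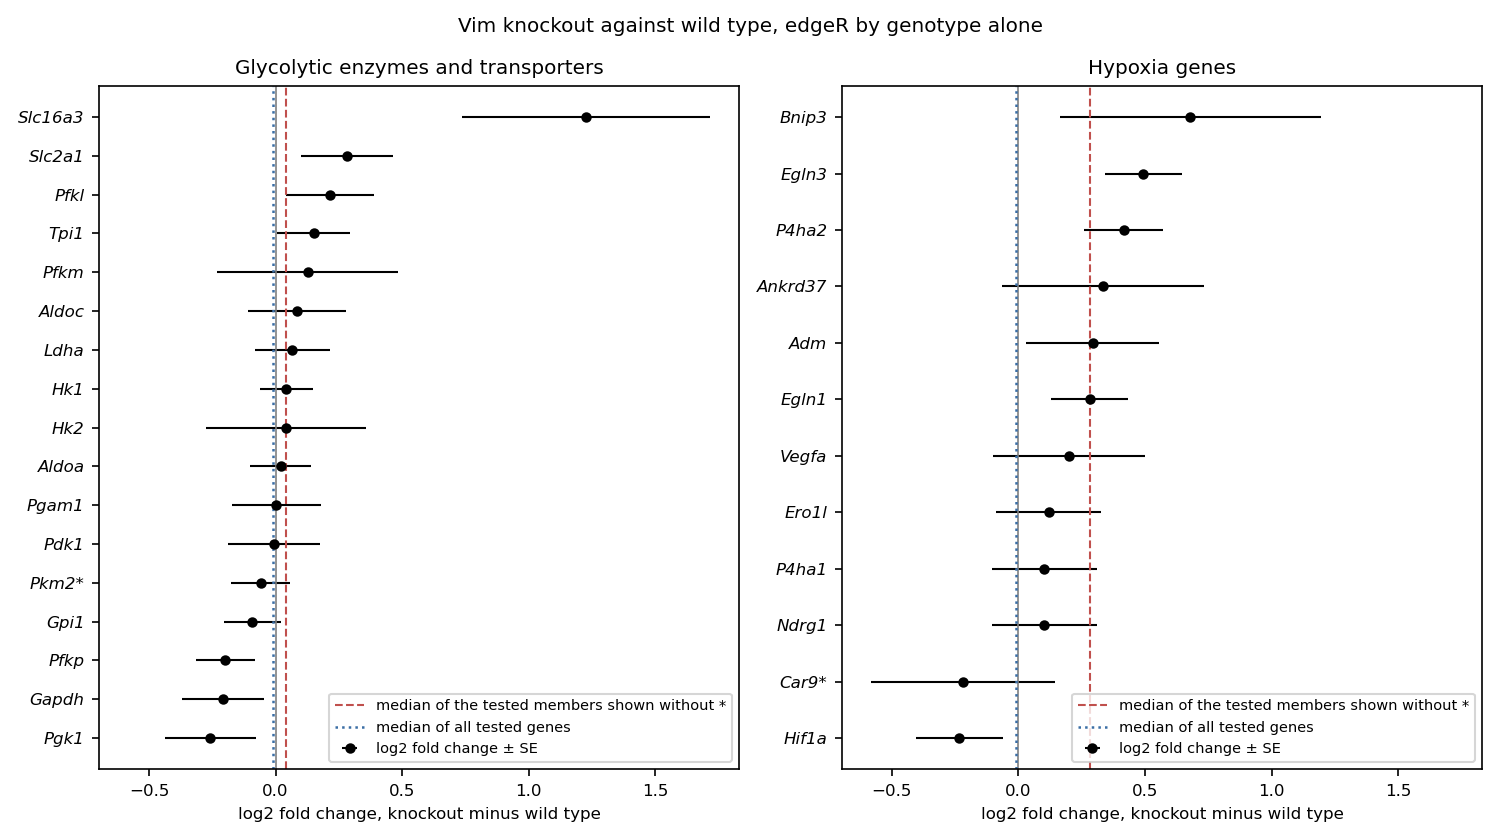
Log2 fold change of each gene, knockout minus wild type, with its standard error as a horizontal bar, from edgeR by genotype alone, for the glycolytic genes on the left and the hypoxia genes on the right. The dashed red line is the median of the tested members of that panel (0.04 and 0.28) and the dotted blue line that of all tested genes (-0.01); no gene passed the adjusted threshold.

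Among the hypoxia genes, Egln3, P4ha2 and Egln1 lay highest relative to their error. Egln3 encodes prolyl hydroxylase PHD3, which marks HIF alpha and is induced by HIF. It lies at chr12:54178981-54203874 on the minus strand (mm10). P4ha2, at chr11:54100924-54131667 on the plus strand, encodes an alpha subunit of the collagen prolyl 4-hydroxylase, which hydroxylates collagen chains so that their triple helix is stable. The 250 bases before the annotated start of each, from RefSeq on GRCm38.p6, are shown because HIF response elements contain the core ACGTG or GCGTG; each match on either strand is in capitals, and one on the minus strand reads CACGT or CACGC. The Egln3 stretch is chr12:54203875-54204124 read on the minus strand, and the P4ha2 stretch chr11:54100674-54100923 read on the plus strand.
Egln3: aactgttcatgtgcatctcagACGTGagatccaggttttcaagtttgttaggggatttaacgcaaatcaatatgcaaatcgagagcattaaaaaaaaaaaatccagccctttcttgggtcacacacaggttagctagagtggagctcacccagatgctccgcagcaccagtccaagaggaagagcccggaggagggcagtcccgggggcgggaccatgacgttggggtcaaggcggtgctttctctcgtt
P4ha2: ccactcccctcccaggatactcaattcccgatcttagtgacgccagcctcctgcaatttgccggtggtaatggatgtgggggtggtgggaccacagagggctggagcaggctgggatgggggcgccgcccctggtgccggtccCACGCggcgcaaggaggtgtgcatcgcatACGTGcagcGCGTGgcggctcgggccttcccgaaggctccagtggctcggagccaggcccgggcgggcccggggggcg
These letters are a description of the window and no evidence of binding.

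Egln3 had 57.8, 83.0, 76.4 and 72.7 CPM in knockout 1 to 4, against 52.1 and 50.8 CPM in wild type 1 and 2. All 4 knockout libraries were above both wild-type libraries, with knockout 1 the closest to them. The log2 fold change was 0.49 (SE 0.15, unadjusted p = 0.0109, edgeR adjusted p = 0.369), and it was 0.41 and 0.55 within the first and second day. P4ha2 had 15.0, 17, 19.5 and 18.2 CPM in the knockout libraries, against 12.8 and 13.3 CPM in the wild-type libraries, again without overlap. Its log2 fold change was 0.42 (SE 0.16, unadjusted p = 0.0277, edgeR adjusted p = 0.502), and 0.32 and 0.50 within the days. Egln3 and P4ha2 were the only 2 of 27 members with all knockout libraries above both wild-type ones, and 7.6% of all tested genes had that order, so the count is near the background.

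Egln1 encodes PHD2, the main oxygen sensor of the HIF pathway in most cells. It had 30.0, 41.8, 35.2 and 34.2 CPM in knockout, against 30.5 and 27.6 CPM in wild type, which gave 0.28 as the log2 fold change (SE 0.15, edgeR adjusted p = 0.708). Knockout 1 fell between the wild-type libraries and the other 3 lay above them. P4ha1, the other common collagen hydroxylase subunit, had 55.1, 73.6, 95.8 and 88.5 CPM in knockout and 67.7 and 78 CPM in wild type (log2 fold change 0.10, SE 0.21, edgeR adjusted p = 0.962), and its groups overlapped. Within families, Egln3 made up 49.6 ± 3.97% of the summed TPM of Egln1, Egln2 and Egln3 in knockout and 43.1 ± 1.51% in wild type, while Egln1 stood at 18.3 ± 0.88% and 18.4 ± 0.32%. P4ha2 made up 27.8 ± 2.79% of the collagen hydroxylase subunits in knockout and 23.4 ± 1.44% in wild type (SD, n = 4 and 2; not tested).

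Hif1a, the HIF alpha subunit whose protein is degraded in oxygen, was below 0, as was Car9. Hif1a had 409, 286, 379 and 435 CPM in the knockout libraries, against 417 and 469 CPM in the wild-type libraries. Of the 4 knockout libraries, 3 lay below both wild-type libraries and knockout 4 between them. The log2 fold change was -0.23 (SE 0.17, edgeR adjusted p = 0.837). Epas1, which encodes the HIF-2 alpha subunit and is prominent in endothelium, made up 40.9 ± 4.98% of the summed alpha subunit TPM in knockout and 31.1 ± 0.87% in wild type, where Hif1a held 59.0 ± 4.98% and 68.8 ± 0.77%. Every knockout library had a lower Hif1a share than both wild-type libraries, a difference that was not tested; endothelial markers were lower, and pericyte markers higher, in knockout, and their part in it was not tested.

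The secreted targets overlapped between the genotypes. Vegfa had 1020.1, 1675, 1863 and 2144 CPM in knockout 1 to 4, against 1129 and 1789 CPM in wild type. The lowest library of each genotype was from the first day. For Vegfa it came to a log2 difference of 0.20 (SE 0.30, edgeR adjusted p = 0.953). Adm, which encodes the vasodilator peptide adrenomedullin, had 70.1, 82.0, 43.9 and 45.4 CPM in knockout and 53.1 and 45.3 CPM in wild type (log2 fold change 0.29, SE 0.26, edgeR adjusted p = 0.896). For Adm the log2 difference from wild type was 0.51 on the first day and -0.02 on the second, and the difference between these was not called (interaction adjusted p = 0.998 by edgeR).

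Of the stress genes, Ndrg1 had 948, 1082, 1153 and 1373 CPM in knockout, against 841 and 1281 CPM in wild type (log2 fold change 0.10, SE 0.21, edgeR adjusted p = 0.962). Ero1l, an oxidase that forms disulfide bonds in the endoplasmic reticulum, had 103, 123, 147 and 148 CPM in knockout and 93.9 and 146 CPM in wild type (0.12, SE 0.21, edgeR adjusted p = 0.959). In both genes the wild-type libraries spanned most of the knockout range. Bnip3, with 19 to 67 counts in a library, and Ankrd37, with 20 to 43, were too low for a firm value: their log2 fold changes were 0.68 (SE 0.52) and 0.33 (SE 0.40). Car9, carbonic anhydrase 9, a pH regulator often used as a hypoxia marker, had 3.08, 5.21, 6.41 and 8.38 CPM in knockout and 7.84 and 5.54 CPM in wild type (log2 fold change -0.22, SE 0.36, edgeR adjusted p = 0.957), with overlapping groups.

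In the glycolytic group the largest fold change was that of the lactate exporter Slc16a3, which encodes MCT4 and is a HIF target. The gene lies at chr11:120948484-120959000 on the plus strand, and the 250 bases before its start in the RefSeq table, chr11:120948817-120949066, hold the core ACGTG in duplicate close to the start (in capitals). That start lies inside the gene's span in the files, which take in an earlier one.
Slc16a3: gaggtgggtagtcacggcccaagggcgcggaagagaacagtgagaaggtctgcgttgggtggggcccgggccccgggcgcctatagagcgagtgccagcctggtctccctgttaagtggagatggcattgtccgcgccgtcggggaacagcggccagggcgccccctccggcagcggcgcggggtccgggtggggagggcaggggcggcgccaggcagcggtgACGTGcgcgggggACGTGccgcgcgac
Slc16a3 had 13.1, 21.9, 43.6 and 47.4 CPM in knockout 1 to 4, against 12.0 and 14.9 CPM in wild type 1 and 2. Knockout 3 and 4 stood well above all others, knockout 2 above both wild-type libraries, and knockout 1 between them. The log2 fold change was 1.23 (SE 0.49, unadjusted p = 0.0361, edgeR adjusted p = 0.539), with 0.50 within the first day and 1.60 within the second. The difference between these was not called (interaction adjusted p = 0.998 by edgeR). No tested gene had an interaction past the threshold, and 586 had an unadjusted p under 0.05, with 1 wild-type library a day.

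At the entry of glucose, Slc2a1 had 743, 1141, 992 and 1083 CPM in knockout, against 779 and 847 CPM in wild type. Knockout 1 was the lowest of all 6 libraries and the other 3 were above both wild-type libraries. For Slc2a1 that was a log2 difference of 0.28 (SE 0.18, edgeR adjusted p = 0.785). Slc2a1 made up 95.5 ± 1.98% of the summed TPM of 5 glucose transporter genes in knockout and 93.9 ± 1.43% in wild type.

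Phosphofructokinase, the committed step of glycolysis, has 3 genes. Pfkp, the platelet form, had 247, 284, 285 and 289.9 CPM in knockout, against 305 and 329.9 CPM in wild type. All 4 knockout libraries were below both wild-type libraries. Pfkp was the only 1 of 27 members with this order, which 8.56% of tested genes had, and its log2 fold change was -0.20 (SE 0.12, edgeR adjusted p = 0.743). Pfkl, the liver form, had 95.6, 142, 139 and 122 CPM in knockout and 117 and 97.7 CPM in wild type (log2 fold change 0.21, SE 0.17, edgeR adjusted p = 0.867). Pfkp supplied 65.5 ± 2.62% of the phosphofructokinase TPM in knockout and 71.4 ± 4.48% in wild type. In the same order Pfkl supplied 31.5 ± 2.64% and 25.9 ± 3.20%, and Pfkm, the muscle form, 3.1 ± 1.0% and 2.62 ± 1.28%.

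The other enzymes of the pathway had overlapping ranges in knockout and wild type. Hk1, the constitutive hexokinase, had 139.8 to 149 CPM in knockout and 129.9 to 149 CPM in wild type. Gpi1, glucose phosphate isomerase, had 179 to 204 and 191 to 219 CPM in knockout and wild type, and Aldoa 439.8 to 516 and 465 to 499.6 CPM. Tpi1, triose phosphate isomerase, had 74.4 to 96.0 and 72.5 to 89.1 CPM, Ldha 377 to 469 and 367 to 439.8 CPM, and Pkm2 506 to 569 and 545 to 599.8 CPM. For these genes and Hk2, Pfkm, Aldoc, Pgam1 and Pdk1 the log2 fold changes lay between -0.09 (Gpi1) and 0.15 (Tpi1), with edgeR adjusted p of at least 0.909. Gapdh and Pgk1 had log2 fold changes of -0.21 (SE 0.16) and -0.26 (SE 0.18) on 394 to 526 and 243 to 441 counts a library.

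**Figure D3:**
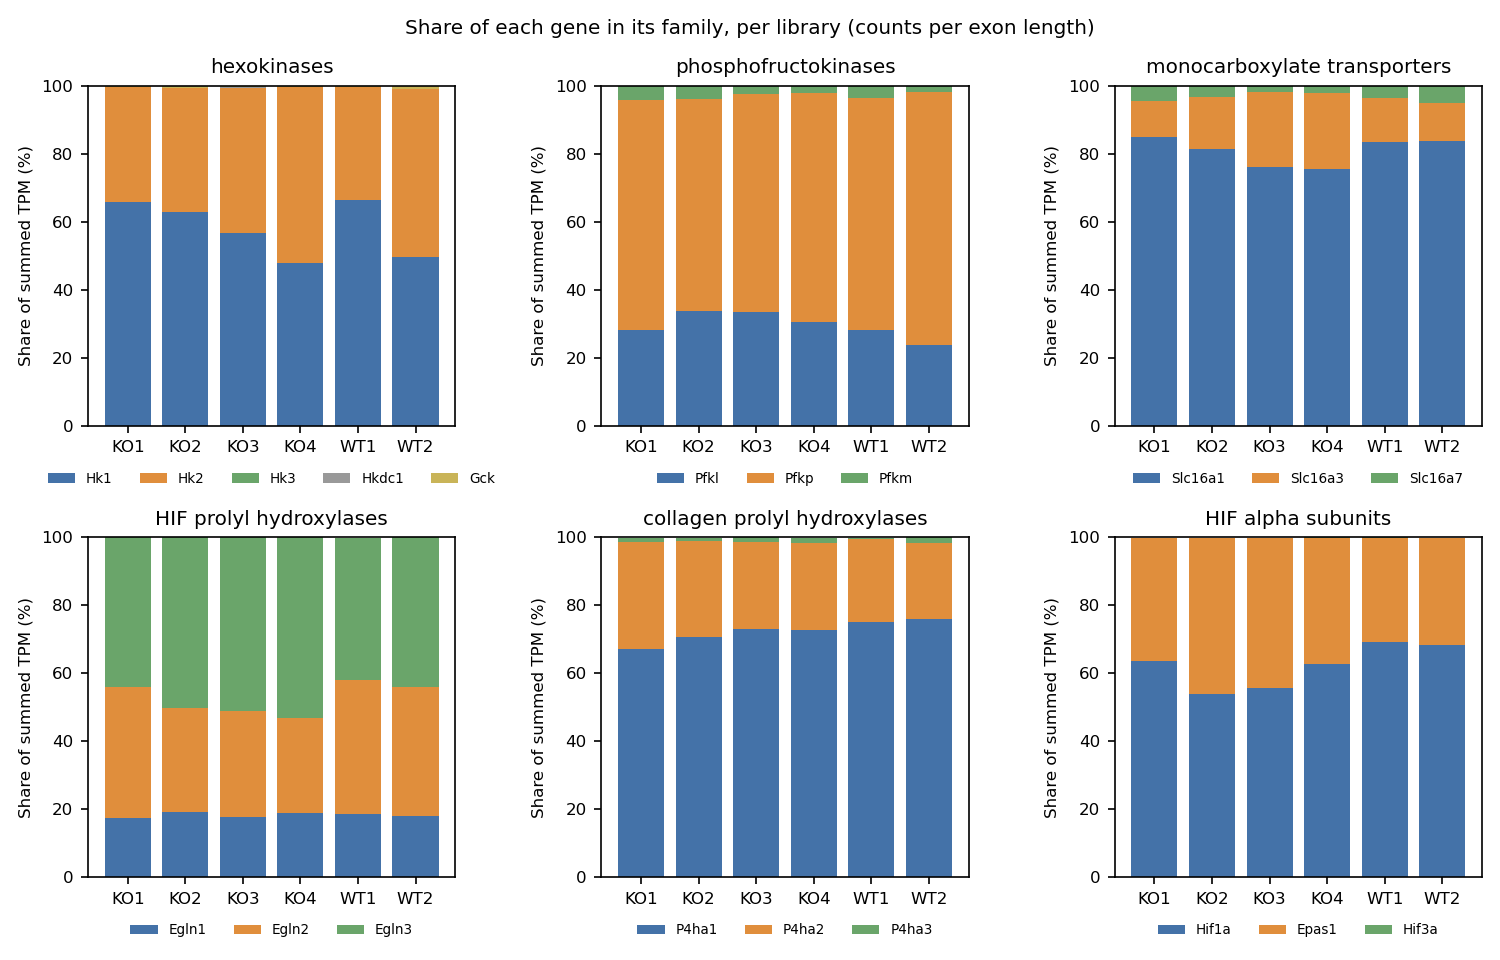
Share of each gene in the summed TPM of its family, in percent, as stacked bars for knockout 1 to 4 and wild type 1 and 2, for hexokinases, phosphofructokinases, monocarboxylate transporters, HIF prolyl hydroxylases, collagen prolyl hydroxylases and HIF alpha subunits. Hk2 held from 33.2% to 51.7% of hexokinase and Slc16a3 from 10.8% to 22.3% of the transporters. Hif1a held from 53.8% to 69.3% of the alpha subunits.

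Some members differed between the collection days. With genotype in the model, edgeR's quasi-likelihood test called 4 of 27 members between the second and the first day, where 6.43% of all tested genes were called. Hk2 and Ero1l rose and Pfkm and Adm fell on the second day. All 3 second-day libraries lay above the 3 first-day libraries for 6 members (Hk2, Ldha, Vegfa, P4ha1, Ndrg1 and Ero1l), an order that 12.6% of tested genes had, and below them for 4 members (Gpi1, Pfkm, Pdk1 and Adm), against 13.5%. DESeq2 called 9 members, where it called 10.6% of all genes. Without knockout 1 the same 4 members and Slc16a3 were called. Without knockout 4 no member was called by edgeR between days, and without knockout 3 there were 2, Hk2 and Pfkm. Such a loss was not particular to knockout 4, and it was also seen without either wild-type library, where 1 library of that genotype was left. The day differences without wild type 1 or wild type 2 were 0.75 for Hk2, 0.38 for Ero1l, -0.71 for Pfkm and -0.77 for Adm. Without knockout 2 the call of Pfkm was lost (adjusted p = 0.0529) and Vegfa and Ndrg1 were called. The number of all genes called between days also moved widely when a library was left out, as given at the end. The counts of members in these fits therefore have no reading of their own. Cell type markers were among the genes called between days: 3 of 8 luminal and 1 of 6 basal markers were lower on the second day, and 0 of 14 endothelial and 0 of 6 pericyte markers were called. The summed luminal markers ran from 2127 to 2282 CPM on the second day and from 2114 to 2351 CPM on the first, and the basal markers from 10748 to 12777 and from 11360 to 12723 CPM, overlapping in both. Their part in the day differences was not tested.

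Hk2, the inducible hexokinase and a HIF target, lies at chr6:82725027-82774454 on the minus strand. Ero1l lies at chr14:45283087-45318572 on the minus strand and Adm at chr7:110627669-110629819 on the plus strand. Their upstream windows are shown because these 3 genes moved with the day, in different directions; the Hk2 window is chr6:82774455-82774704 and the Ero1l window chr14:45318573-45318822, both read on the minus strand, and the Adm window chr7:110627407-110627656 on the plus strand.
Hk2: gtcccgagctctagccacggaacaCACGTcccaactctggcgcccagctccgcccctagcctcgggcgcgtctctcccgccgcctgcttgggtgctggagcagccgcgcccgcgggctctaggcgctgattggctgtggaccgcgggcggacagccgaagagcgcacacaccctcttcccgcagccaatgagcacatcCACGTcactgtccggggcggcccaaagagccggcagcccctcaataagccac
Ero1l: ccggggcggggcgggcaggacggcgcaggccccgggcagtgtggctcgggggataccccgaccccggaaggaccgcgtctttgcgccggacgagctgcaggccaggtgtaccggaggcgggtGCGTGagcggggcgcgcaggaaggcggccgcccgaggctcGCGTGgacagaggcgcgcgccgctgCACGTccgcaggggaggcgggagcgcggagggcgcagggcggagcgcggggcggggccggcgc
Adm: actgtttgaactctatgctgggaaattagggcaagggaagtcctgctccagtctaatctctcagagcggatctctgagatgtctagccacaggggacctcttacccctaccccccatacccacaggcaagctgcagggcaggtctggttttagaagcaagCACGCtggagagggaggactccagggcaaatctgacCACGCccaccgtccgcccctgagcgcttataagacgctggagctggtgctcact
The Hk2 window holds ACGTG, the Ero1l window both cores, and the Adm window GCGTG alone. The window of Pfkm, which fell on the second day like Adm, holds ACGTG as well.

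Hk2 had 137, 184 and 158 CPM in the second-day libraries (knockout 3, knockout 4, wild type 2), against 88.4, 102 and 90.9 CPM in the first-day libraries (knockout 1, knockout 2, wild type 1). The day groups did not overlap, and the log2 fold change between days was 0.77 (SE 0.12, edgeR adjusted p = 0.00871), 0.74 within knockout and 0.80 within wild type. Between the genotypes it was 0.04 (SE 0.32, edgeR adjusted p = 0.996), and 0.07 and 0.01 within the days. Hk2 supplied 41.2 ± 7.95% of hexokinase TPM in knockout and 41.3 ± 11.4% in wild type.

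Pfkm had 8.50, 6.33 and 5.81 CPM on the second day, in the same order of libraries, against 11.1, 13.2 and 12.0 CPM on the first (log2 fold change -0.82, SE 0.18, edgeR adjusted p = 0.0249). Ero1l had 147, 148 and 146 CPM on the second day, against 103, 123 and 93.9 CPM on the first (0.47, SE 0.10, edgeR adjusted p = 0.0271). The second-day values of Ero1l were nearly identical in both genotypes. Adm had 43.9, 45.4 and 45.3 CPM on the second day, against 70.1, 82.0 and 53.1 CPM on the first (-0.59, SE 0.13, edgeR adjusted p = 0.025). For Vegfa (0.60, SE 0.17), Ndrg1 (0.41, SE 0.12), P4ha1 (0.41, SE 0.13), Ldha (0.29, SE 0.09) and Slc16a3 (1.04, SE 0.27) the edgeR adjusted p of the day lay between 0.0726 and 0.0863, and without knockout 1 Slc16a3 was called (0.75, adjusted p = 0.0159). Of the HIF targets called between days, Hk2 and Ero1l rose and Adm fell.

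**Figure D4:**
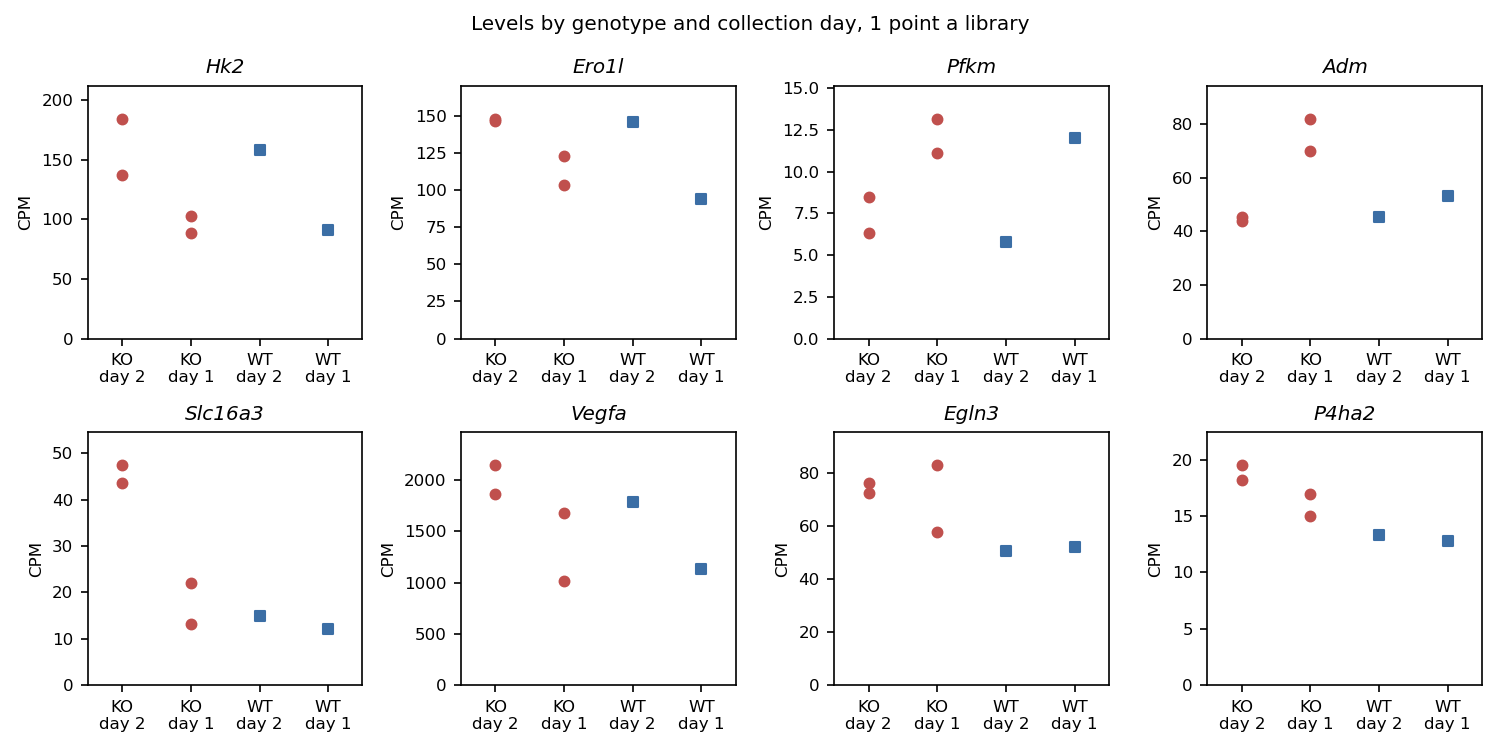
CPM of 8 genes in each library, by genotype and collection day, with knockout libraries as red circles and wild-type libraries as blue squares on axes that start at 0. Hk2 and Ero1l are higher and Pfkm and Adm lower on the second day, while Egln3 and P4ha2 are higher in knockout than in wild type on both days.

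Knockout 1 stood lower than the other knockout libraries for many of these genes. It had the lowest CPM of the 4 knockout libraries for 16 of 27 members (59.3%), 8 of 16 glycolytic and 8 of 11 hypoxia genes, where it was the lowest for 25.1% of all tested genes. Its median deviation from the mean of the 6 libraries, in log2 CPM, was -0.14 over the glycolytic and -0.15 over the hypoxia genes, and 0.01 over all tested genes. In knockout 2, 3 and 4 the hypoxia median was 0.11, 0.23 and 0.20, and in wild type 1 and 2 it was -0.15 and -0.24. With the replicate block and without knockout 1, a setting added after the data were seen, 5 members were called by edgeR, all higher in knockout: Slc16a3 (log2 fold change 1.31, adjusted p = 0.00151), Egln3 (0.62, adjusted p = 0.0028), Slc2a1 (0.42, adjusted p = 0.0499), Egln1 (0.40, adjusted p = 0.0426) and Pfkl (0.38, adjusted p = 0.0483). That fit called 6.84% of all tested genes. All 5 members had their lowest knockout CPM in knockout 1, so leaving it out raised their fold changes by construction. Their calls in that fit have no reading of their own. Leaving out another knockout library called 0 members. The number of all genes called with the replicate block also moved widely when a library was left out, as given at the end. The contrast in members called therefore does not by itself set knockout 1 apart. Why knockout 1 was lower was not tested, and there is no label that sets it apart.

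**Figure D5:**
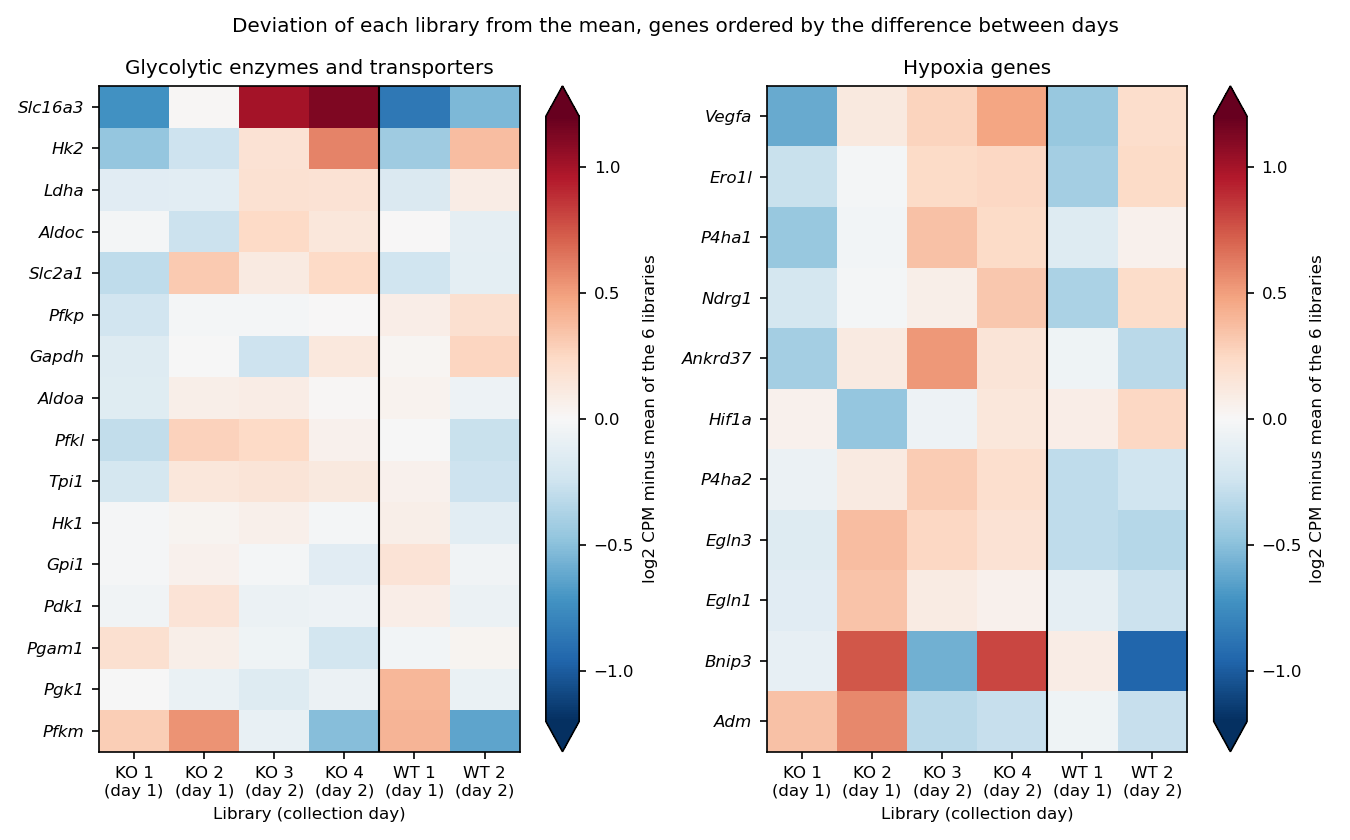
Log2 CPM of each tested member minus its mean over the 6 libraries (colour, blue below and red above the mean), with genes ordered by the difference between collection days and the libraries in columns, knockout left of wild type. Slc16a3 is highest in knockout 3 and 4, and knockout 1 is below the mean for most genes of both panels.

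The upstream windows of all members were searched for the same cores, as a description of sequence alone. Of the members, 29 of 30 had a window in the RefSeq table. ACGTG, on either strand, was in 9 of 11 hypoxia windows (81.8%), 7 of 18 glycolytic windows (38.9%), 21.4% of 10785 windows of tested genes and 16.5% of all 27025 windows. GCGTG was in 7 of 11 (63.6%), 8 of 18 (44.4%), 45.4% and 28.3%, and either core in 10 of 11 (90.9%), 13 of 18 (72.2%), 56.5% and 38.6%. Most of the hypoxia genes were listed for being known HIF targets, while Hif1a encodes a part of HIF itself. The glycolytic genes were listed as enzymes and transporters of the pathway, whether or not they are HIF targets. The Vegfa window held neither core, and no match says only that these letters are not in this window.

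The wider pathways were read from 50 other genes of glycolysis and pyruvate use and 54 other hypoxia genes. Of the other glycolysis genes 46 were in the files and 37 were tested, with a median log2 fold change of -0.05, 15 above 0 and 22 below, and by genotype alone 0 were called. With the replicate block, Slc16a1 rose and Pdk4 fell, 2 of 37 where 1.56% of all tested genes were called. Of the other hypoxia genes 54 were in the files and 52 were tested, with a median of 0.03, 29 above 0 and 23 below, and again 0 called by genotype alone. When the replicate block was added, 4 of these 52 rose, including Cxcl12, Pdgfb and Tmem45a, and none fell. DESeq2, which called 1.87% of all tested genes, called 4 higher, Pdgfb, Tmem45a, Cited2 and Pnrc1. At an unadjusted p under 0.05 by genotype alone there were 5 of the other glycolysis genes and 11 of the other hypoxia genes, against 8.57% of all. Between days, Slc16a1 rose and Pdk4, Pgd and Taldo1 fell among the other glycolysis genes, and among the other hypoxia genes those that rose included Ddit4 and Cxcl12, and Cxcr4 fell; that was 4 of 37 and 4 of 52, against 6.43% of all.

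Slc16a1 encodes MCT1, which carries lactate in both directions. It had 177, 200.4, 261 and 276 CPM in knockout, against 132 and 191 CPM in wild type, with 0.50 as the log2 fold change (SE 0.22, edgeR adjusted p = 0.587), and 0.51 (SE 0.10, adjusted p = 0.0403) with the replicate block. Both knockout libraries of each day lay above that day's wild-type library. Slc16a3 made up 17.6 ± 5.55% of the summed TPM of Slc16a1, Slc16a3 and Slc16a7 in knockout and 12.1 ± 1.25% in wild type. Without knockout 3, knockout 4 or either wild-type library Slc16a1 was no longer called with the replicate block (adjusted p from 0.0904 to 0.316).

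Pdk4, a kinase that turns pyruvate away from oxidation and is abundant in fat and muscle, had 242, 279.6, 183 and 199 CPM in knockout, against 522 and 276 CPM in wild type. Wild type 1 stood far above all others. The log2 fold change was -0.82 (SE 0.26, edgeR adjusted p = 0.382), with -0.77 (SE 0.12, adjusted p = 0.0174) with the replicate block, and -0.27 by genotype alone without wild type 1. With the replicate block Pdk4 was no longer called without wild type 1 (adjusted p = 0.315) or wild type 2 (0.0507). The 5 adipocyte markers summed to 5.63 to 9.09 CPM in knockout and 11.6 to 42.8 CPM in wild type, with the highest sum in wild type 1; 2 of 5 had counts in every library, and Plin1, Cidec and Lep were at 0 in some. Their part in the Pdk4 value was not tested. Plin2, a lipid droplet protein and HIF target, had 71.2, 31.9, 52.3 and 63.2 CPM in knockout and 137 and 70.9 CPM in wild type (log2 fold change -0.93, SE 0.33, edgeR adjusted p = 0.477), also highest in wild type 1.

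Among the other hypoxia genes, Pdgfb, a growth factor for pericytes, had 84.0, 69.9, 72.3 and 75 CPM in knockout, against 37.2 and 47.1 CPM in wild type. The groups did not overlap. The log2 fold change was 0.84 (SE 0.14, edgeR adjusted p = 0.139, and 0.0136 with the replicate block; 9.35e-05 by DESeq2). Pdgfb is known from endothelium, whose markers were lower in knockout, while pericyte markers were higher; their part was not tested. The call with the replicate block was lost without knockout 4 (adjusted p = 0.052), wild type 1 (0.259) or wild type 2 (0.0621). Tmem45a had 16.8, 17.1, 12.3 and 18.6 CPM in knockout and 9.24 and 7.04 CPM in wild type (0.99, SE 0.22, edgeR adjusted p = 0.222, and 0.0362 with the replicate block), also without overlap, and was no longer called there without knockout 4, wild type 1 or wild type 2 (adjusted p of 0.0858, 0.276 and 0.346).

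Cxcl12, a chemokine of stromal cells, had 437, 457, 859.7 and 783 CPM in knockout, against 177 and 442 CPM in wild type. Within each genotype the second-day libraries were the higher ones, and the log2 fold change was 1.04 (SE 0.42, edgeR adjusted p = 0.544), 1.11 (SE 0.13, adjusted p = 0.00378) with the replicate block, a call lost without wild type 1 (adjusted p = 0.137). Hmox1, heme oxygenase, lay the other way with 1325, 736, 460.0 and 468 CPM in knockout and 1771 and 1722 CPM in wild type (-1.22, SE 0.39, edgeR adjusted p = 0.393, and 0.122 with the replicate block). All 4 knockout libraries were below both wild-type libraries.

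The remaining genes of the wider lists with the smallest p were not called between genotypes by edgeR. On the higher side were Slc2a3, the glucose transporter GLUT3 (log2 fold change 0.95, SE 0.29), Pdp1, a phosphatase that reactivates pyruvate dehydrogenase (0.52, SE 0.23), Pfkfb3, which makes the activator of phosphofructokinase (0.23, SE 0.11), Cited2, which competes with HIF for its coactivator (0.55, SE 0.15), and Pnrc1 (0.45, SE 0.12). On the lower side were Eno3, the muscle enolase (-0.42, SE 0.16), Pgd (-0.48, SE 0.21) and Rpia (-0.44, SE 0.12) of the pentose phosphate pathway, Gys1, glycogen synthase (-0.25, SE 0.14), and Plod1, a collagen lysyl hydroxylase (-0.24, SE 0.13). Cited2 and Pnrc1 had DESeq2 adjusted p of 0.0484 and 0.0295.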

How the data were processed

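The values deposited by the authors are raw counts of reads over the UCSC mm10 exons of each gene, obtained, per the file headers, with featureCounts 1.5.1 in reverse-stranded mode (option 2) and without the options for reads that map to several places or genes. STAR 2.5.2b, Subread 1.5.1 and bcl2fastq 2.17 are named in the submitters' processing notes, without their roles. Libraries were stranded mRNA libraries, per the labels' protocols. From these counts, edgeR 4.0.16 in R 4.3.3 compared knockout with wild type (filterByExpr, which kept 13925 genes and set 9412 aside; TMM; glmQLFit, robust; glmQLFTest, 2-sided), with Benjamini-Hochberg adjustment over all tested genes and a threshold of 0.05. CPM are on the TMM scale, log2 CPM use a prior count of 2, and TPM use the exon lengths in the files. DESeq2 1.42.0 and limma-voom (limma 3.58.1) were alternatives, with other size factors, filters and each library left out. The scripts were tested on simulated data. Counting error weighs most on Bnip3, Ankrd37 and Car9. Pdk1, with 158 to 225 counts a library, and Pfkm, with 151 to 396, were also low.

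The labels speak of 2 independent experiments, and the day code in the file names gave the replicate block. Deviations from the group means correlated between knockout and wild-type libraries of the same day (r = 0.32, 0.29, 0.25 and 0.41 across genes) and were negative across days; with 2 wild-type libraries these values mirror each other. The day was taken to pair the libraries. By title number, knockout 1 and wild type 1, which also share the day, had r = 0.32, and knockout 2 and wild type 2 had r = -0.29. Title numbers thus gave no pairing apart from the day.

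The members and all gene lists were chosen with earlier results of these data known. Named were every member found; of the wider lists each gene called with or without the replicate block, and per list and direction the 4 with the smallest p and a mean log2 CPM not under 1; and Vim. Other genes were named after their values were seen. A gene of the wider lists that met this rule is not reported here. The 50-base stretches were compared over 141767 transcripts. Upstream windows are the 250 bases before the start in a RefSeq table for GRCm38.p6. Where that table gave a gene several starts, only the one furthest upstream was used, and windows at other starts were not searched.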

Additional observations from a re-analysis of the deposited data

Results flagged for a closer look

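Of the members, 3 had a knockout library far from the other 3 by Dixon's test (the gap to the nearest library, divided by the range, above the critical value for 4 values); chance alone gives this in about 1 of 20 groups. Pfkp had 247.1 CPM in knockout 1, below the other knockout libraries, with a gap of 0.852 of the range. Tpi1 had 74.36 CPM in knockout 1, also below the others, with a gap of 0.891. Pdk1 had 7.269 CPM in knockout 2, above the others, with a gap of 0.873. It had only 158 to 201 counts in a knockout library, and the part of counting error in this gap was not tested. The groups of 2 wild-type libraries were too small for this test. The share of all tested genes with such a library is not given here, so the count of 3 members has no reading of its own.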

How the results depend on the processing

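The count of genes called between knockout and wild type, 11 by genotype alone, was 217 with the replicate block and 261 by DESeq2, from 3 to 15 without each library in turn, and from 4 to 940 with the replicate block and without each library in turn. The count of members called stayed at 0, except that it ran from 0 to 5 with the replicate block and without each library in turn. The hypoxia median, 0.28, was 0.037 with the title number as a replicate block, a pairing the data do not bear out, and from 0.16 to 0.37 without each library in turn. The glycolysis median, 0.04, ran from -0.01 to 0.09 without each library and from -0.03 to 0.12 with the replicate block by day as well. Between days, 895 genes were called, 1478 by DESeq2, and 38 to 1838 without each library in turn. The 4 members called between days became 7 with no filter on low counts and 9 by DESeq2, and 0 to 5 without each library in turn. Leaving out a library removes residual degrees of freedom from a design of 6, and where a day or a genotype kept 1 library its spread was taken from the others. The fits with the replicate block and 1 library left out were added after the data were seen.

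No fold change between genotypes that changed sign had been called. With the title number as a replicate block these were Hk2 (-0.33), Aldoa (-0.024), Aldoc (-0.092), Ldha (-0.089), Pdk1 (0.056), Vegfa (-0.12), P4ha1 (-0.19), Ndrg1 (-0.036) and Ero1l (-0.055). With the replicate block by day Pgam1 was at -0.0037, and Pdk1 was at 0.0077 with DESeq2 size factors, 0.0081 with a CPM filter and 0.0064 by DESeq2. Without each library in turn, the log2 fold change between knockout and wild type ran from -0.29 to 0.49 for Hk2, -0.30 to 0.77 for Pfkm, -0.077 to 0.57 for Vegfa, -0.15 to 0.47 for Ero1l and -0.15 to 0.44 for Ndrg1. It ran from -0.010 to 0.26 for P4ha1, -0.039 to 0.20 for Ldha, -0.052 to 0.16 for Hk1, -0.028 to 0.091 for Aldoa, -0.049 to 0.071 for Pgam1, -0.074 to 0.086 for Pdk1, -0.19 to 0.031 for Gpi1 and -0.47 to 0.021 for Pgk1. It kept its sign but moved by over 1.5 times for Pfkl (0.090 to 0.37), Pfkp (-0.24 to -0.13), Aldoc (0.0087 to 0.19), Tpi1 (0.011 to 0.33), Gapdh (-0.30 to -0.088), Hif1a (-0.31 to -0.10), Bnip3 (0.24 to 1.37), Adm (0.13 to 0.43) and Ankrd37 (0.16 to 0.51).

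Between days, scaling by total counts turned Pfkl (-0.074), Aldoa (-0.060), Tpi1 (-0.069) and Egln3 (-0.035), none of them called. Without each library in turn, the day difference ran from -0.030 to 0.32 for Slc2a1, -0.18 to 0.14 for Pfkl, -0.060 to 0.081 for Aldoa, -0.13 to 0.16 for Tpi1, -0.11 to 0.19 for Egln3, -0.22 to 0.056 for Egln1 and -0.10 to 0.011 for Hk1. The causes of these changes were not tested. Of the comparisons of single genes with an alternative, 677 kept their direction and their side of the threshold, 51 changed sign, 13 gained and 15 lost a call. Depth limits Bnip3 and Ankrd37, with at most 67 and 43 counts in a library.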
